A study of Mus musculus with 15 samples.

Results

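The 31 genes described here encode integrin subunits, selectin-pathway proteins, immunoglobulin-type adhesion receptors, linkers between integrins and actin, and tetraspanins. They were taken as the entries of the expression table whose gene name matched a list of 31 symbols, out of 38315 genes, and each symbol matched 1 entry. All 31 passed the filter on low values, a normalized count of at least 10 in at least 4 samples, which kept 18941 genes. The list has 14 integrin subunit genes: Itga1, Itga2, Itga4, Itga5, Itga6, Itga9, Itgal, Itgam, Itgad and Itgav for alpha chains, and Itgb1, Itgb2, Itgb5 and Itgb7 for beta chains. The other 17 are Selp, Selplg, Cd44, Icam1, Icam2, Vcam1, Pecam1, F11r, Jaml, Fermt3, Tln1, Vcl, Alcam, Mcam, Ncam1, Cd9 and Cd82.

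RNA of 15 mouse bone marrow samples was sequenced in bulk. The leukaemia group held 7 marrow samples with acute myeloid leukaemia (AML) from NUP98-NSD1/FLT3-ITD mice. NUP98-NSD1 fuses a nuclear pore protein to a histone methyltransferase, and the FLT3-ITD allele carries a duplication that activates the tyrosine kinase receptor FLT3. Wild-type marrow served as reference in 2 forms, 4 samples of whole marrow and 4 of lineage-negative marrow. Lineage-negative marrow is what remains once cells bearing antigens of mature lineages are removed, so it is rich in stem and progenitor cells. The antigens used for that depletion, the strain, age and sex of the mice, and the promoters of the alleles are not given in the sources used here. The labels call the AML samples bone marrow tissue and mention no sorting of blasts. The labels do not say that every sample came from a separate animal, so the p-values measure only the spread between these samples, which may be technical.

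Integrins are paired receptors of an alpha and a beta chain that bind matrix proteins or receptors on other cells. The beta chain largely sets the family: beta2 integrins are the leukocyte integrins, beta1 integrins bind mostly matrix, and alpha4 pairs with beta1 or beta7. Selectins start the rolling of blood cells on endothelium through ligands such as PSGL-1, and integrins then arrest the cells on ICAM and VCAM receptors. Talin and kindlin bind the beta tail and switch integrins to the active form, and vinculin strengthens the link to actin. In marrow, the binding of alpha4 integrins to VCAM-1 and of CD44 to hyaluronan holds stem cells and leukaemia cells in place.

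Values are normalized counts, estimated reads per gene divided by a size factor of each library. Estimated depth was 20.3 to 35.1 M (mega) reads in AML, 11.4 to 17.2 M reads in whole marrow and 20.3 to 28.1 M reads in lineage-negative marrow. Depending on the library, 3 reads amounted to 1.96 to 4.09 normalized counts, which serves as a floor. Genes of olfactory and vomeronasal receptors, which belong to sensory neurons, averaged 6.31 to 11.9 normalized counts in the whole marrow libraries, against 0.404 to 3.34 in the AML libraries and 0.325 to 0.462 in the lineage-negative ones. The median log2 difference over all 18941 genes was 0.67 between AML and whole marrow, 0.02 between AML and lineage-negative marrow and 0.59 between lineage-negative and whole marrow. After rescaling by the trimmed mean of M values (TMM), a method that aligns libraries on the bulk of their genes, these medians were −0.01, 0.03 and −0.09. Every result that involves whole marrow is therefore given on both scalings where they disagree. Whole marrow replicate 1 had the lowest value of its group for all 31 genes, and its TMM divisor was 0.468, against 0.792 to 0.816 in the other whole marrows.

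Defining genes of the 3 groups were looked at through lists of marker genes, given as the sum of their normalized counts. All 6 monocyte markers rose in AML against each reference, with sums of 72845 to 139370 in AML, 16855 to 36756 in whole marrow and 20155 to 30943 in lineage-negative marrow, although after TMM 4 of the 6 passed against whole marrow. The 8 mature neutrophil markers summed to 27906 to 132880 in AML, 44199 to 96385 in whole marrow and 1495 to 3220 in lineage-negative marrow. The 8 stem and progenitor markers summed to 5308 to 10717 in AML, 3251 to 5643 in whole marrow and 26302 to 33702 in lineage-negative marrow. Megakaryocyte markers were low in AML, at 64.1 to 364, against 509 to 1554 in whole and 603 to 1098 in lineage-negative marrow. Erythroid markers were at 803540 or more in every whole marrow and at 48587 or less in all other libraries. In bulk samples, fewer cells of a type and less RNA per cell cannot be told apart.

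Of the 31 genes, 22 had a promoter window in the RefSeq table for GRCm38.p6, and the windows used here run over the 250 bases before the gene start. Those of Itgam, Itgb1, Itgb7 and Itga4 are shown because these genes carry the main contrasts described next: the leukocyte integrin that separates lineage-negative from whole marrow, and the alpha4 subunit with its alternative beta partners. Capitals mark the letters GAGGAA, a core of sites for ETS factors such as PU.1, and TGTGGT, a core of sites for RUNX factors, on either strand.
Itgam, chr7:128062390-128062639, plus strand: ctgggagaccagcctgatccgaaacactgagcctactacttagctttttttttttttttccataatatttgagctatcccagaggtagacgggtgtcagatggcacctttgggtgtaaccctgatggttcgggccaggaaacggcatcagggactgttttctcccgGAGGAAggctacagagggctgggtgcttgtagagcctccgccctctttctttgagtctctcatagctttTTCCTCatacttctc
Itgb1, chr8:128685404-128685653, plus strand: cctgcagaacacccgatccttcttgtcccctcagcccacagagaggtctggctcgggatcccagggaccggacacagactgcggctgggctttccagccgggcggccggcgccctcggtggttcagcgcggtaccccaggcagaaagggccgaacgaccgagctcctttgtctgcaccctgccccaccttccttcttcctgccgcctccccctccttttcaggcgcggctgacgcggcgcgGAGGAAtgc
Itgb7, chr15:102231936-102232185, minus strand: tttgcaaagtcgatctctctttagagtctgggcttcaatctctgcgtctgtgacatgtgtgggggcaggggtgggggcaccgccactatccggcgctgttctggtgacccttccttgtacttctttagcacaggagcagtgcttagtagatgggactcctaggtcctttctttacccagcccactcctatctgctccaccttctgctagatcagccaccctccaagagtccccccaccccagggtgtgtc
Itga4, chr2:79255176-79255425, plus strand: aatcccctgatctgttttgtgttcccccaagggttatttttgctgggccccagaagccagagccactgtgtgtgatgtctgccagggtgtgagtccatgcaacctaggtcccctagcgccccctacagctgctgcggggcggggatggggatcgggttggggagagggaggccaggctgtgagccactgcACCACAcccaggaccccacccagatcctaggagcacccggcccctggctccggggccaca
The Itgam window holds GAGGAA starting at −84 from the gene start and its reverse complement TTCCTC starting at −15. The Itgb1 window holds GAGGAA at −9, the Itga4 window holds ACCACA, the reverse complement of TGTGGT, at −60, and the Itgb7 window has neither. GAGGAA was in 8 of the first windows of these 22 genes and TGTGGT in 3, against 23.4% and 14.0% of the 32536 distinct windows of this length. A match of letters is a description and says nothing of binding.

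AML marrow had more Itga1, Itga5, Itgb7 and Icam1 transcript than whole marrow on both scalings, and less Itga2, Itga9 and Vcam1. On the deposited scaling most called genes were higher in AML than in whole marrow, and after TMM as many were higher as lower. Against lineage-negative marrow AML had more transcript of the leukocyte integrins and of most surface receptors. A gene was called when its adjusted p was under 0.05 and its log2 difference at least 1 in size (limma on log2 values, Benjamini-Hochberg over all genes kept). Against whole marrow, 14 of the 31 were higher in AML, where 27.3% of all genes were, and 3 were lower, where 11.3% were. The median difference of the 31 was 0.80, against 0.67 over all genes. After TMM, 4 of the 31 were higher (Itga1, Itga5, Itgb7 and Icam1), with 4.73% of all genes higher, and 4 were lower (Itga2, Itga9, Itgad and Vcam1), with 16% lower. Leaving out whole marrow replicate 1 left 11 higher, and leaving out whole marrow replicate 2 left 1 lower.

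Against lineage-negative marrow, 19 of the 31 were higher in AML, where 17.7% of all genes were, and 3 were lower, where 12.5% were. The median of the 31 was 1.30, against 0.02 over all genes. TMM gave the same 19 and 3 genes, with 17.6% of all genes higher and 12.4% lower. Between the wild-type groups, 6 of the 31 were higher in lineage-negative than in whole marrow, where 33.1% of all genes were, and 9 were lower, where 17.2% were. The median of the 31 was 0.02, against 0.59 over all genes. After TMM, 1 gene, Itga5, was higher, with 11% of all genes higher, and 13 were lower, with 24.8% lower.

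The comparisons share libraries: the same 7 AML samples stand against each reference. With that said, 9 genes were higher in AML than in either reference: Itga1, Itgal, Itgav, Itgb5, Itgb7, Selplg, Icam1, F11r and Alcam. The share of all genes called in both comparisons was not taken, so these counts have no background beside them. The F11r call against lineage-negative marrow was lost under several alternatives given below. After TMM the 9 came down to Itga1, Itgb7 and Icam1. Itga2 was lower in AML than in each reference on both scalings, though its difference from whole marrow was close to the size set for a call. Vcam1 lay between the references, lower than in whole marrow and higher than in lineage-negative marrow. Cd82 and Selp were called in none of the 3 comparisons on the deposited scaling.

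**Figure D1:**
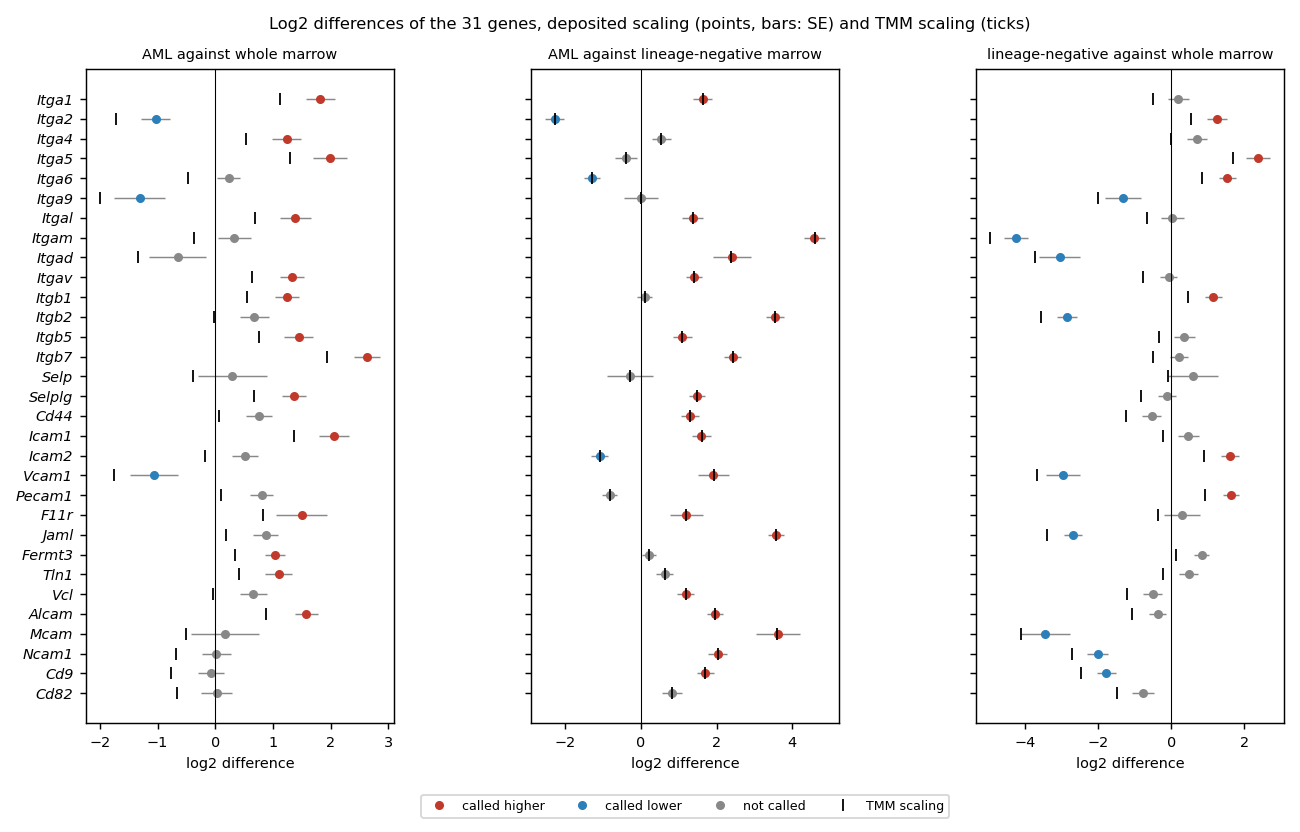
Log2 difference of each of the 31 genes in the 3 comparisons, with points for the deposited scaling, horizontal bars for the standard error and black ticks for TMM scaling. Red and blue points passed the call as higher and lower, 14 and 3 for AML against whole marrow, 19 and 3 for AML against lineage-negative marrow, and 6 and 9 for lineage-negative against whole marrow. The ticks lie to the left of the points in every comparison with whole marrow, where TMM calls 4 and 4 genes for AML and 1 and 13 genes for lineage-negative marrow.

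Levels of different genes can be compared per kilobase of exon. In AML the highest means per kilobase were those of Itgb2, Itgb7 and Itgam, at 5712, 3680 and 3281 normalized counts, followed by Tln1 at 3099.6 and Selplg at 2791. The AML libraries spanned 2471 to 4953 for Itgb7, 1823 to 5342 for Itgam and 2486 to 3834 for Tln1, so the order of these 3 lay within their spread. In whole marrow the order was Itgb2 (3601), Itgam (2559), Tln1 (1467) and Selplg (1100.5). Lineage-negative marrow was led by Tln1 (2051), Itgb1 (1261), Fermt3 (1129) and Selplg (999), with Itgb2 at 511 and Itgam at 142. Of these, Tln1, Itgb1 and Fermt3 in lineage-negative marrow had standard deviations of 589, 109.7 and 135, so the order of Itgb1 and Fermt3 lay within their spread. The least abundant per kilobase were Itga2 and Itga9 in AML (5.53 and 6.75), F11r and Selp in whole marrow (10.8 and 11.2), and Itgad and Mcam in lineage-negative marrow (2.98 and 4.50).

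Among the leukocyte integrins of the beta2 family, Itgb2 and Itgam stood near the whole marrow level in AML and far above the lineage-negative level, while Itgal exceeded both references. Itgb2, the common beta2 chain CD18, ranged over 13545 to 24578 with a median of 16565 in AML. It was at 7038, 13768, 12088 and 11062 in whole marrow replicates 1 to 4 and at 2539.7, 1086, 1366 and 1241 in lineage-negative replicates 1 to 4. The AML libraries overlapped whole marrow, 6 of 7 lying above all 4, and did not overlap lineage-negative marrow. Itgb2 was 3.54 log2 units higher in AML than in lineage-negative marrow (SE 0.25, adjusted p = 9.17e-10). The difference from whole marrow, 0.68 (SE 0.25, adjusted p = 0.021), did not reach the size set for a call and was −0.02 after TMM.

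Itgam encodes CD11b, the alpha chain of Mac-1, found on neutrophils, monocytes and macrophages. Its AML libraries spanned 9158 to 26837 with a median of 14727, its whole marrow replicates 1 to 4 were at 8297, 15437, 14614 and 13082, and its lineage-negative replicates 1 to 4 were at 1287, 486, 519 and 568.3. Lineage-negative marrow thus stood below every other library, with replicate 1 the highest of its group. The difference between AML and lineage-negative marrow was 4.58 (SE 0.29, adjusted p = 2.78e-10), the widest of the 31. CD11b is an antigen commonly used for lineage depletion, and its use here is not given in the sources used here, so the depletion and a lower level in the remaining cells cannot be told apart. Against whole marrow the AML libraries overlapped, and the difference of 0.33 (SE 0.29, adjusted p = 0.319) became −0.36 after TMM.

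Itgal, the alpha chain CD11a of LFA-1 on nearly all leukocytes, followed another order. AML libraries spanned 3881 to 7876 with a median of 5280.2, above whole marrow at 964, 2678, 2330.3 and 2619.5 and lineage-negative marrow at 3342, 1676, 1858 and 1614 in replicates 1 to 4. All 7 AML libraries exceeded all 8 reference libraries. The log2 difference was 1.39 (SE 0.28, adjusted p = 0.000282) against whole marrow and 1.37 (SE 0.28, adjusted p = 0.000414) against lineage-negative marrow. The first was 0.69 after TMM (adjusted p = 0.0208), under the size set for a call. Itgad, the alpha chain CD11d of a macrophage integrin, was rare: AML spanned 33.6 to 138 with a median of 52.8, whole marrow was at 37.9, 114, 133 and 142 and lineage-negative marrow at 25.5, 3.53, 7.05 and 17.6. It was higher in AML than in lineage-negative marrow by 2.40 (adjusted p = 0.000567), and its difference from whole marrow, −0.65 (adjusted p = 0.26), passed as lower only after TMM, at −1.34 (adjusted p = 0.0386). Itgam, Itgal and Itgad lie on chromosome 7 and are paralogs, so reads may have been divided between them.

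Per kilobase of exon, the alpha partners of beta2 made up different mixtures in the 3 groups. Of the summed levels of Itgal, Itgam, Itgad and Itgax, Itgam took 72.1% ± 10.2 (SD, n = 7) in AML. Its share was 86.9% ± 2.30 (SD, n = 4) in whole marrow but 27.9% ± 2.99 (SD, n = 4) in lineage-negative marrow. Itgal took 18.6% ± 4.28 in AML, 10.7% ± 2.07 in whole marrow and 65.7% ± 3.27 in lineage-negative marrow. Itgax, which encodes the CD11c chain of dendritic cells and monocytes, took 8.93% ± 6.50 in AML and 1.61% ± 0.141 in whole marrow. In lineage-negative marrow it took 5.77% ± 1.00, inside the AML range of 2.54% to 21.8%. These shares do not depend on the scaling of a library.

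Itgb7 had the largest rise of the 31 in AML against whole marrow, on both scalings. Its product beta7 pairs with alpha4 to bind MAdCAM-1 and VCAM-1, and with alphaE. AML libraries spanned 6846 to 13719 with a median of 9698, while whole marrow replicates 1 to 4 stood at 1056, 2139.9, 1648 and 1796 and lineage-negative replicates 1 to 4 at 2712, 1860.4, 1496 and 1578. The lowest AML library lay above the highest reference library. The mean was 6.14 times that of whole marrow, a log2 difference of 2.63 (SE 0.22, adjusted p = 5.63e-08), and 1.94 after TMM (adjusted p = 2.97e-07). Against lineage-negative marrow the difference was 2.43 (SE 0.22, adjusted p = 3.86e-08). No alternative setting ended either call.

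Itga4, the alpha4 chain of the VCAM-1 receptors, was abundant in all groups. AML spanned 5866 to 14316 with a median of 9116, whole marrow replicates 1 to 4 were at 2411, 4097, 4208 and 6029.7, and lineage-negative replicates 1 to 4 at 6694, 4906, 6718 and 7909. The lowest AML library overlapped whole marrow replicate 4. The difference from whole marrow was 1.24 (SE 0.25, adjusted p = 0.000367), but it was 0.54 after TMM (adjusted p = 0.0511) and 0.996 without whole marrow replicate 1, and neither of these was a call. Against lineage-negative marrow it was 0.54 (adjusted p = 0.0911).

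Itgb1, the beta1 chain shared by most matrix receptors, was higher in AML and in lineage-negative marrow than in whole marrow. AML spanned 4135 to 8933 with a median of 5239, whole marrow was at 1555, 2807, 2522 and 2622 and lineage-negative marrow at 4981, 5492, 4589.9 and 5527 in replicates 1 to 4. AML and lineage-negative libraries overlapped, and both lay above every whole marrow library. The difference from whole marrow was 1.24 for AML (SE 0.21, adjusted p = 5.9e-05) and 1.15 for lineage-negative marrow (SE 0.23, adjusted p = 0.000283). After TMM these were 0.55 and 0.44, no longer calls, and without whole marrow replicate 1 the second was 0.95, also no call. Per kilobase, Itgb7 made up 72.6% ± 5.43 (SD, n = 7) of Itgb1 plus Itgb7 in AML. That share was 50.5% ± 1.65 (SD, n = 4) for whole marrow, and it was lowest for lineage-negative marrow, at 35.0% ± 6.56 (SD, n = 4).

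**Figure D2:**
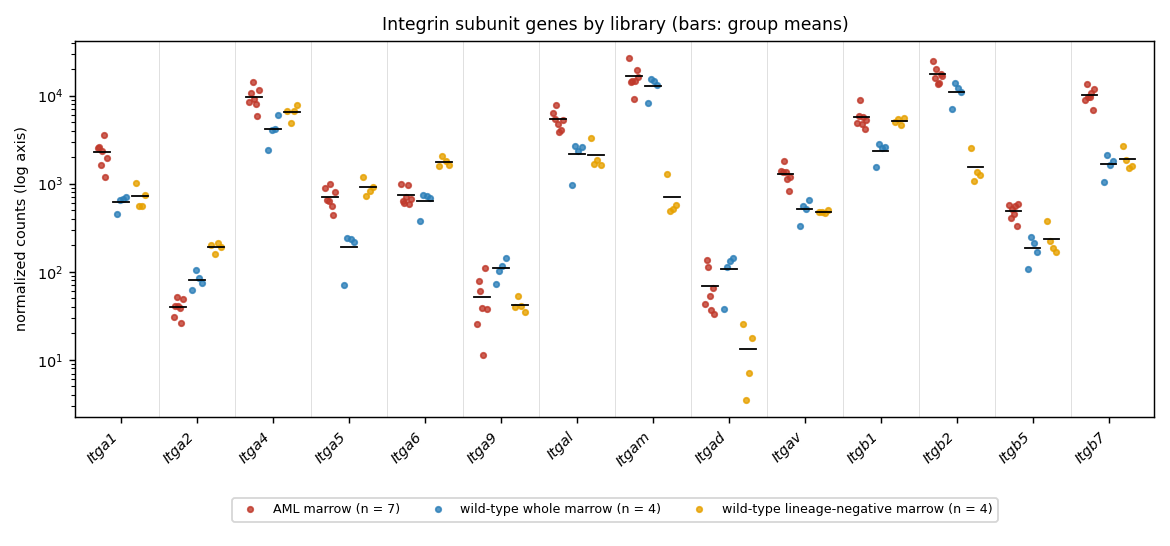
Normalized counts of the 14 integrin subunit genes on a log axis, with a point for each library and a bar for the mean of each group (7 AML, 4 whole and 4 lineage-negative marrows). The AML points of Itgb7 lie above all reference points, those of Itga2 lie below them, and the lineage-negative points of Itgam and Itgb2 lie below all others. Levels of different genes are not per length and are not compared.

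Among the other alpha chains, Itga1 rose and Itga2 fell in AML against each reference. Itga1 encodes the collagen receptor chain alpha1. Its AML libraries spanned 1195 to 3553 with a median of 2354, against 457, 653, 663 and 699 in whole marrow and 1018, 556, 559 and 738 in lineage-negative marrow, replicates 1 to 4. No AML library overlapped a reference library. The differences were 1.82 (SE 0.25, adjusted p = 9.42e-06) and 1.63 (SE 0.25, adjusted p = 2.29e-05), and the first was 1.12 after TMM, still a call.

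Itga2, the collagen receptor chain alpha2 known from platelets, was at 25.9 to 51.5 with a median of 40.5 in AML, at 61.9, 105, 85.6 and 73.7 in whole marrow and at 203, 160.4, 211 and 193 in lineage-negative marrow. The 3 groups did not overlap, with AML lowest and lineage-negative marrow highest. The difference was −2.28 against lineage-negative marrow (SE 0.25, adjusted p = 3.95e-07) and −1.03 against whole marrow (SE 0.25, adjusted p = 0.0015). The latter just passed the size set for a call and missed it, at −0.98, −0.94 and −0.91, without AML replicate 1, AML replicate 6 or whole marrow replicate 2. It also missed it with a pseudocount of 5 (−0.96) and with receptor background subtracted (−0.91), while TMM made it −1.72. The megakaryocyte markers were also low in AML, 7 of 8 falling against whole marrow and 5 of 8 against lineage-negative marrow. All 5 mast cell and basophil markers fell against each reference. They summed to 178 to 3062 in AML, 2703 to 6840 in whole marrow and 22340 to 40152 in lineage-negative marrow. Of the 8 T and NK cell markers, 4 rose and 0 fell against whole marrow (0 and 2 after TMM). Against lineage-negative marrow 5 of them rose and 1 fell. The part of these cells in the Itga2 result was not tested. Receptor background reached 1.88 to 3.54 normalized counts per kilobase in whole marrow, where Itga2 averaged 11.4 per kilobase.

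Itga5 and Itga6, the alpha chains of the fibronectin and laminin receptors, separated AML from whole and from lineage-negative marrow in different ways. Itga5 spanned 436 to 980.1 with a median of 651 in AML and 1196, 716, 821 and 922 in lineage-negative replicates 1 to 4, and was at 70.0, 243, 236 and 218 in whole marrow. Both AML and lineage-negative libraries lay above every whole marrow library. It was higher than in whole marrow by 1.99 in AML (SE 0.30, adjusted p = 2.17e-05) and by 2.38 in lineage-negative marrow (SE 0.33, adjusted p = 6.59e-06), and both calls held after TMM, at 1.30 and 1.68. Itga6 spanned 582 to 982 with a median of 668 in AML, close to 379.6, 746, 731 and 681 in whole marrow and below 1600.2, 2055, 1807 and 1649.8 in lineage-negative marrow. It was lower in AML than in lineage-negative marrow, with a log2 difference of −1.30 (SE 0.21, adjusted p = 3.53e-05). Its difference from whole marrow was 0.23 (adjusted p = 0.333) and −0.46 after TMM.

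Itgav encodes alphav, the chain of vitronectin and RGD-binding receptors, and Itgb5 encodes a beta partner of it. Itgav was at 818 to 1813 with a median of 1343 in AML, 333, 555, 518 and 659 in whole marrow and 472, 478, 465.8 and 497 in lineage-negative marrow. Itgb5 was at 333 to 583 with a median of 522 in AML, 109, 248, 210.0 and 169 in whole marrow and 376, 223, 187 and 166 in lineage-negative marrow. All 7 AML libraries exceeded both references for Itgav, and for Itgb5 the lowest AML library lay under lineage-negative replicate 1. Itgav rose by 1.33 and 1.40 against whole and lineage-negative marrow (adjusted p = 2.91e-05 and 1.41e-05), and Itgb5 by 1.45 and 1.09 (adjusted p = 8.95e-05 and 0.00145). After TMM the differences from whole marrow were 0.63 and 0.76, no longer calls, and without lineage-negative replicate 4 the second Itgb5 difference was 0.94, also no call.

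Itga9, an alpha chain that pairs with beta1 and binds tenascin and VCAM-1, was low and variable in AML. It spanned 11.3 to 111 with a median of 38.9 in AML, the highest being replicate 6, against 72.7, 103, 117 and 143 in whole marrow and 39.9, 53.8, 41.4 and 34.6 in lineage-negative marrow. AML overlapped both references, with 5 of 7 libraries below all whole marrows. It was lower than in whole marrow, with log2 differences of −1.31 in AML (SE 0.44, adjusted p = 0.0145) and −1.32 in lineage-negative marrow (SE 0.50, adjusted p = 0.0268). The second call was lost without whole marrow replicate 3 (−1.27), whole marrow replicate 4 (−1.17) or lineage-negative replicate 4 (−1.23), and with receptor background subtracted (−1.20).

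Of the selectin-pathway genes, Selplg and Cd44 were abundant and Selp was low. Selplg encodes PSGL-1, the main ligand of P-selectin on leukocytes. AML spanned 8632 to 14099 with a median of 12275, above 3073, 5845, 5461 and 4427 in whole marrow and 5237, 4649.7, 3477 and 3702 in lineage-negative marrow, with no overlap. It rose by 1.36 (SE 0.21, adjusted p = 2.91e-05) and 1.48 (SE 0.21, adjusted p = 9.59e-06), the first being 0.67 after TMM and no longer a call.

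Cd44, the hyaluronan receptor that also carries E-selectin ligands, was at 7445 to 15448 with a median of 9883 in AML, 3371, 7862, 7073 and 7074 in whole marrow and 4066, 4117, 4111 and 4325 in lineage-negative marrow. The 4 lineage-negative libraries lay close together and below all AML libraries. Cd44 was higher in AML than in lineage-negative marrow by 1.30 (SE 0.23, adjusted p = 0.000102), and than in whole marrow by 0.76 (adjusted p = 0.00706), which did not reach the size for a call and was 0.06 after TMM. Between the wild-type groups it was −0.54 (adjusted p = 0.0727), and lower by call after TMM, at −1.24 (adjusted p = 6.71e-06). Selp, which encodes P-selectin of platelets and endothelium, spanned 7.57 to 216 with a median of 60.3 in AML, and was at 25.5, 42.2, 68.6 and 60.8 in whole marrow and 58.8, 45.8, 56.4 and 154 in lineage-negative marrow. All groups overlapped, and none of its differences (0.30, −0.29 and 0.58, with standard errors of 0.60 to 0.68) passed the test, the first turning to −0.38 and the last to −0.10 after TMM.

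The immunoglobulin-type receptors for leukocyte integrins moved in different directions. Icam1, the ligand of LFA-1 and Mac-1, spanned 792 to 1846 with a median of 1034 in AML, and was at 129, 306, 342 and 339 in whole marrow and 381, 394, 341 and 323 in lineage-negative marrow. No AML library overlapped a reference library. The difference was 2.06 from whole marrow (SE 0.25, adjusted p = 3.47e-06), 1.36 after TMM (adjusted p = 4.71e-05), and 1.60 from lineage-negative marrow (SE 0.25, adjusted p = 3.65e-05). No alternative setting ended either call.

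Icam2, another LFA-1 ligand that is known from endothelium and blood cells, was at 193 to 377 with a median of 304 in AML, 128, 281, 209 and 236 in whole marrow and 560.0, 809, 615 and 543 in lineage-negative marrow. All AML libraries lay below all lineage-negative libraries and overlapped whole marrow. It was lower than in lineage-negative marrow, with a log2 difference of −1.09 (SE 0.22, adjusted p = 0.000513), a value that came to −0.99 when AML replicate 4 was left out and to −0.96 when lineage-negative replicate 2 was, neither a call. Lineage-negative exceeded whole marrow by 1.60 (adjusted p = 2.23e-05), or 0.90 after TMM, no call. The Icam2 difference between AML and whole marrow was 0.51 (limma adjusted p = 0.0538), no call, and turned to −0.18 after TMM. Pecam1, the CD31 receptor of endothelium and many blood cells, had the same order of means as Icam2 on the deposited scaling. Its AML libraries spanned 930.1 to 1933 with a median of 1090.5, between whole marrow at 498, 690.1, 818 and 764 and lineage-negative marrow at 2358, 2114, 2031 and 1934. AML overlapped neither reference, though its differences of 0.80 and −0.82 (adjusted p = 0.00171 and 0.00195) were under the size set for a call, and the first was 0.11 after TMM. Pecam1 in lineage-negative marrow exceeded whole marrow by 1.63 (adjusted p = 5e-06), and by 0.92 after TMM, no call.

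Vcam1, the receptor for alpha4 integrins that marrow macrophages and stroma express, spanned 261 to 1816 with a median of 638 in AML. It was at 731, 1557, 1554 and 1408 in whole marrow and 148, 86.4, 182 and 277 in lineage-negative marrow. AML replicate 6 was the highest of all 15 libraries, while 5 of the 7 AML libraries lay below every whole marrow. AML was lower than whole marrow, at a log2 difference of −1.06 (SE 0.42, adjusted p = 0.0324), and higher than lineage-negative marrow, at 1.91 (SE 0.42, adjusted p = 0.000836). The first call was lost without AML replicate 2 (−0.87), AML replicate 7 (−0.86), or whole marrow replicates 2 (−0.95), 3 (−0.96) or 4 (−1.003). AML replicate 6 also had the highest sum of the 8 marrow macrophage markers, 6192, in a range of 2651 to 6192 in AML, 1382 to 3650 in whole marrow and 182 to 409 in lineage-negative marrow. Of these markers 1 rose and 2 fell in AML against whole marrow (2 fell and none rose after TMM), all 8 rose against lineage-negative marrow, and Mertk was at 0 in a lineage-negative library. Their part in the Vcam1 differences was not tested.

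F11r and Jaml are junctional adhesion receptors, the first known from platelets, epithelium and endothelium and the second from neutrophils and T cells. F11r was rare, at 29.3 to 223 with a median of 100.1 in AML, 17.1, 33.5, 27.1 and 36.8 in whole marrow and 39.0, 33.5, 31.7 and 32.6 in lineage-negative marrow. AML overlapped both references, 5 of 7 libraries lying above all 8. The differences were 1.498 (SE 0.44, adjusted p = 0.00576) and 1.20 (SE 0.44, adjusted p = 0.0302). The first was 0.82 after TMM (adjusted p = 0.143), and the same difference was 2.14 with receptor background subtracted. The second lost its call without AML replicate 1 (0.95), 2 (1.14) or 6 (1.11), and without lineage-negative replicate 2 (1.19), 3 (1.16) or 4 (1.18). It also lost it with no filter on low values (1.20, adjusted p = 0.0577) and with receptor background subtracted (1.19, adjusted p = 0.0771). Jaml spanned 1354 to 2242 with a median of 1751 in AML, and was at 710.1, 1322, 773.98 and 1043 in whole marrow and 201, 158, 96.1 and 138 in lineage-negative marrow. The 3 groups did not overlap. Jaml was higher in AML than in lineage-negative marrow by 3.57 (SE 0.21, adjusted p = 1.54e-10). The difference from whole marrow was 0.87 (adjusted p = 0.00158), 1.04 and a call without whole marrow replicate 2, and 0.18 after TMM.

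Alcam, Mcam and Ncam1 encode immunoglobulin-type receptors, CD166, CD146 and CD56, that also serve as markers of stroma, endothelium and nerve cells. Alcam rose in AML: its libraries spanned 1230.3 to 2586 with a median of 1591, above 397, 604, 623 and 589 in whole marrow and 418, 447, 405 and 408 in lineage-negative marrow, with no overlap. The differences were 1.58 (SE 0.20, adjusted p = 4.55e-06) and 1.96 (SE 0.20, adjusted p = 1.55e-07), and the first was 0.88 after TMM, no longer a call. Mcam spanned 66.4 to 469.5 with a median of 119 in AML, and was at 41.3, 188, 336 and 157 in whole marrow and 19.1, 2.64, 20.3 and 18.3 in lineage-negative marrow, where replicate 2 was at the floor of 3 reads. Ncam1 spanned 962 to 2038 with a median of 1143 in AML, and was at 887, 1494, 1359 and 1359 in whole marrow and 451, 174, 290.0 and 400.1 in lineage-negative marrow.

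For Mcam and Ncam1, AML overlapped whole marrow and lay above every lineage-negative library. Mcam was higher in AML than in lineage-negative marrow by 3.62 (SE 0.59, adjusted p = 4.8e-05) or 3.01 without lineage-negative replicate 2, and Ncam1 by 2.03 (SE 0.25, adjusted p = 1.78e-06). Against whole marrow they did not pass, at 0.18 and 0.02, and turned to −0.51 and −0.67 after TMM. The 10 endothelial and stromal markers summed to 402 to 1813 in AML, 1021 to 2098 in whole marrow and 1059 to 1560 in lineage-negative marrow, with 4 higher and 3 lower in AML than in lineage-negative marrow. Adipoq and Emcn were at 0 in an AML library, and the part of these cells in the results was not tested.

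The genes that connect integrins to actin were among the most abundant. Fermt3, the kindlin of blood cells, was at 6911 to 8944 with a median of 7122 in AML, 2549.8, 4418, 4141 and 3812 in whole marrow and 7231, 7149, 6104 and 5644 in lineage-negative marrow. Tln1, which encodes talin, was at 24363 to 37577 with a median of 30287 in AML, 9434, 15277, 16217 and 16593 in whole marrow and 28717, 17753, 16445 and 17485 in lineage-negative marrow. For each, all AML libraries lay above all whole marrows and overlapped lineage-negative marrow. Fermt3 rose by 1.04 (SE 0.18, adjusted p = 7.34e-05) and Tln1 by 1.10 (SE 0.23, adjusted p = 0.000473) against whole marrow, values close to the limit for a call. After TMM they were 0.34 and 0.41, without whole marrow replicate 1 they were 0.87 and 0.91, and without AML replicate 6 Fermt3 was 0.998, none of them calls. Against lineage-negative marrow the differences were 0.21 and 0.62 (adjusted p = 0.359 and 0.034).

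Vcl encodes vinculin, which binds talin and actin. It was at 3806 to 6693 with a median of 4691 in AML, 1865, 3499.5, 3291 and 3738 in whole marrow and 3175, 1537, 1647 and 2390.5 in lineage-negative marrow. All AML libraries exceeded both references, by a mean of 1.18 over lineage-negative marrow (SE 0.23, adjusted p = 0.000275) and of 0.66 over whole marrow (adjusted p = 0.0161), the latter no call and −0.03 after TMM. Lineage-negative replicate 1 was the highest of its group for 17 of the 31 genes, Tln1 and Vcl among them. Its marker sums were also the highest of its group for mature neutrophils, neutrophil precursors, monocytes, erythroid cells, T and NK cells, and endothelium and stroma. They were the lowest of its group for stem and progenitor cells and for megakaryocytes.

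Cd9 and Cd82 encode tetraspanins, membrane organisers that associate with beta1 integrins. Cd9 was at 1212 to 2566 with a median of 1529 in AML, 1357, 2540.4, 1982 and 1686 in whole marrow and 449, 597, 583 and 533 in lineage-negative marrow, and Cd82 at 1060.0 to 2455 with a median of 1402, 951, 1782, 1691 and 1689 and 1282, 707, 649 and 928. AML overlapped whole marrow for both genes, and lay above lineage-negative marrow for Cd9. Cd9 was higher in AML than in lineage-negative marrow by 1.70 (SE 0.23, adjusted p = 4.41e-06). Cd82 did not reach a call at 0.81 (adjusted p = 0.0163), and came to 1.00, a call, without lineage-negative replicate 1. Against whole marrow the differences were −0.08 and 0.03, and after TMM −0.77 and −0.67. Between the wild-type groups Cd82 was −0.79 (adjusted p = 0.0267), and lower by call at −1.0002 without whole marrow replicate 1 and at −1.49 after TMM.

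**Figure D3:**
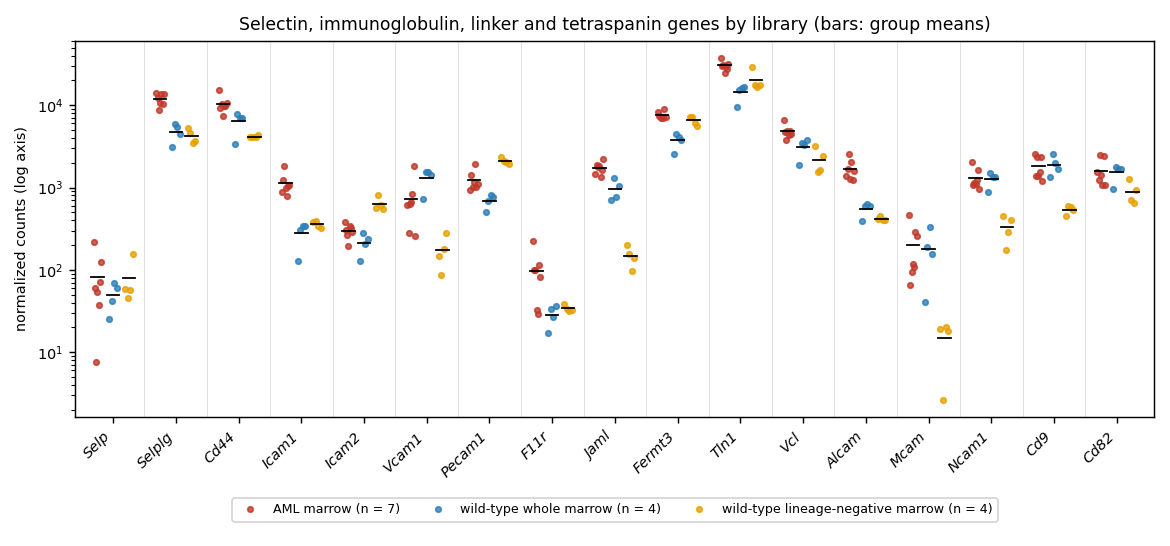
Normalized counts of the other 17 genes on a log axis, with a point for each library and a bar for the mean of each group (7 AML, 4 whole and 4 lineage-negative marrows). AML points of Selplg, Icam1 and Alcam lie above all reference points, those of Vcam1 spread from 261 to 1816, and the lineage-negative points of Jaml, Mcam and Ncam1 lie below all AML points.

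Between lineage-negative and whole marrow, 9 of the 31 genes were lower in the lineage-negative samples, several of them known from mature myeloid cells. The log2 difference was −4.25 for Itgam (SE 0.32, adjusted p = 1.74e-08), −2.86 for Itgb2 (SE 0.28, adjusted p = 1.43e-07) and −2.70 for Jaml (SE 0.24, adjusted p = 6.31e-08). It was −3.45, −3.06 and −2.97 for Mcam, Itgad and Vcam1, and −2.01 and −1.78 for Ncam1 and Cd9. For these 8 and for Itga9 (−1.32), the wild-type groups did not overlap and the call held after TMM, though the Itga9 call was lost in other alternatives given above. As called genes they were selected for a difference, and the share of all genes without overlap was not taken. Beside them, all 8 mature neutrophil markers and all 8 macrophage markers fell, as did all 7 B cell and 7 of 8 erythroid markers. Of 10 endothelial and stromal markers 6 fell and 2 rose. Of 8 T and NK cell markers 5 fell and 1 rose (6 and 0 after TMM). The 6 monocyte markers had 0 called (2 fell after TMM). By contrast, 7 of 8 stem and progenitor markers rose and 1 fell (6 and 1 after TMM), and 5 of 5 mast cell and basophil markers rose (4 after TMM). The part of these cells in the differences was not tested. Itga6 and Itga2 were higher in lineage-negative marrow by 1.53 and 1.25, which after TMM were 0.83 and 0.55 and no calls, leaving Itga5 as the gene that was higher on both scalings. Cd44, Vcl, Alcam and Cd82 became lower by call after TMM.

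Ratios of paired genes within a library do not depend on its size factor, apart from the pseudocount. For 12 pairs in 3 comparisons, 36 exact two-sided permutation tests were made, of which 31 had an adjusted p under 0.05 (Benjamini-Hochberg over the 36). The smallest p the design allows is 0.00303 for AML against a reference, from 330 splits, and 0.0286 between the references, from 70 splits. Itgb7 to Itgb1 was 1.82 in AML, 0.694 in whole marrow and 0.362 in lineage-negative marrow (geometric means), and no AML library overlapped a reference library. The log2 difference of AML from whole marrow was 1.39 and from lineage-negative marrow 2.33, each with an exact permutation p of 0.00303 (adjusted 0.0109).

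Icam1 to Icam2 separated AML from each reference with the same p-values. Icam1 to Icam2 was 3.7, 1.27 and 0.576 in AML, whole and lineage-negative marrow, with no overlap between any of the 3 (adjusted exact permutation p = 0.0109 for AML against each reference). Itgam to Itgal was 3.01 in AML, 6.28 in whole marrow and 0.324 in lineage-negative marrow, with no overlap between any of the 3 (adjusted exact permutation p = 0.0218, 0.0109 and 0.0381). Itga6 to Itga5 was 1.05 in AML, 3.55 in whole marrow and 1.97 in lineage-negative marrow, and AML overlapped only the last. AML was thus the group with the least Itga6 per Itga5, with adjusted exact permutation p-values of 0.0109 and 0.0218.

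Among the linker and tetraspanin pairs, 2 of 3 did not pass the test between AML and whole marrow. Fermt3 to Tln1 was 0.249 in AML and 0.26 in whole marrow (exact permutation p = 0.618), a log2 difference of −0.06. Vcl to Tln1 was 0.157 in AML, 0.213 in whole marrow and 0.107 in lineage-negative marrow (adjusted exact permutation p = 0.0321 for AML against whole marrow). Cd82 to Cd9 was 0.865 in AML and 0.805 in whole marrow (exact permutation p = 0.579). In lineage-negative marrow it was 1.6, with no overlap with either group (adjusted exact permutation p = 0.0109 against AML and 0.0381 against whole marrow). Against lineage-negative marrow the adjusted exact permutation p was 0.039 for Fermt3 to Tln1 (log2 difference −0.41) and 0.0218 for Vcl to Tln1 (log2 difference 0.55), with overlapping libraries in both. Leaving out a library ended 24 of 132 results for AML against whole marrow, all in the pairs Itga4 to Itga5, Itgb1 to Itgb2, Itgam to Itgb2 and Vcl to Tln1, whose adjusted exact permutation p then lay between 0.0577 and 0.122. For AML against lineage-negative marrow it ended 7 of 132, all for Fermt3 to Tln1 (adjusted exact permutation p of 0.0581 to 0.0938). Between the references it ended 13 of 96, for Cd82 to Cd9, Itga6 to Itga5 and Itgb7 to Itgb1 (adjusted exact permutation p of 0.0643 to 0.103).

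**Figure D4:**
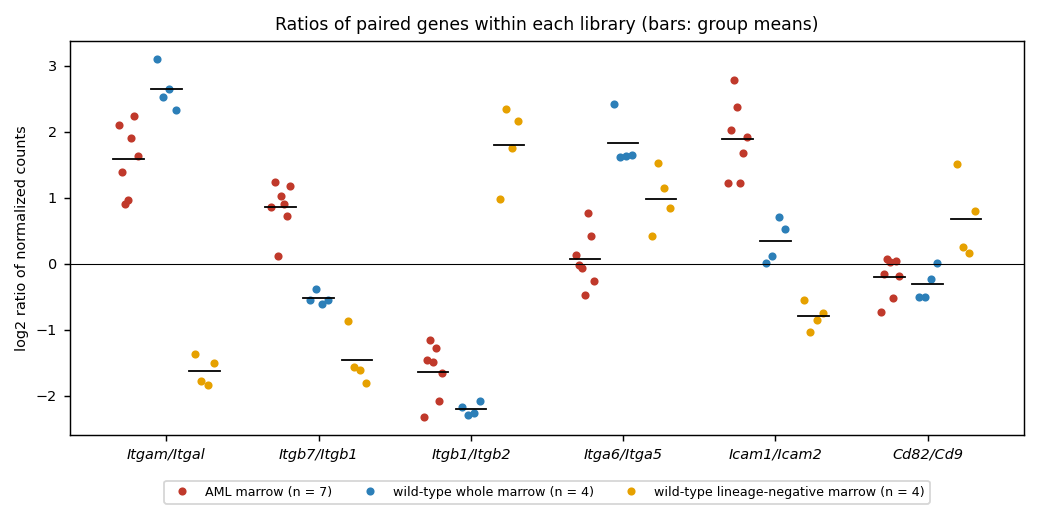
Log2 ratios of 6 gene pairs within each library, with a point for each library and a bar for the mean of each group (7 AML, 4 whole and 4 lineage-negative marrows). The AML points of Itgb7 to Itgb1 and of Icam1 to Icam2 lie above all reference points, and those of Itgam to Itgal lie between the 2 references. Ratios are of normalized counts, not per length.

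Spread within the AML group differed between genes. The coefficient of variation of the 31 genes had a median of 27.6% in AML, 27.2% in whole marrow and 22.6% in lineage-negative marrow, against 28.1%, 29.9% and 23.9% over all genes kept. AML replicate 1 had the highest AML value for 13 genes, among them Itgam, Itgb2, Selplg, Cd44 and Tln1, and it had the highest mature neutrophil and monocyte sums of its group. AML replicate 3 was highest for 8 genes, among them Itga4, Itgal, Itgb1, Icam1 and Alcam, and AML replicate 6 was lowest for 10, among them Itga1, Itga4, Itga5, Itgb1 and Itgb7. The part of the marker differences in these values was not tested.

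Further integrin subunits were read from a list of 13 genes outside the 31, of which 12 passed the filter. In AML 3 rose and 2 fell against whole marrow, with a median of 0.44 (2 and 2 after TMM). On the deposited scaling these are 25% and 16.7% of the 12, near the 27.3% and 11.3% of all genes, and the median lay under the 0.67 of all genes. After TMM they are 16.7% each, beside 4.73% higher and 16% lower of all genes. Against lineage-negative marrow 6 rose and 3 fell, 50% and 25% of the 12 beside 17.7% and 12.5% of all genes, with a median of 1.09. Itgae, the alphaE partner of beta7, averaged 329 ± 607 (SD, n = 7) in AML, from 58.5 to 1701, against 14.8 ± 7.36 (SD, n = 4) in whole marrow, and rose by 3.24 (SE 0.69, adjusted p = 0.000489), or 2.58 after TMM. The highest library, AML replicate 3, carried that mean: without it the other 6 averaged 100.5 ± 60.1 (SD, n = 6), and the difference was 2.64. With receptor background subtracted the difference was 4.94. Itgax averaged 1909 ± 1690 (SD, n = 7) in AML and 226 ± 54.5 (SD, n = 4) in whole marrow, and rose by 2.75 (SE 0.41, adjusted p = 2.02e-05), or 2.06 after TMM. Its highest AML library, 5575, was also replicate 3. Itga2b, the platelet integrin chain, fell in AML, with log2 differences of −1.99 from whole marrow and −4.35 from lineage-negative marrow. Itgb2l, a neutrophil paralog of Itgb2 that could share its reads, averaged 6547 in AML, 6319 in whole marrow and 75.0 in lineage-negative marrow.

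Among 15 genes of selectins, their ligands and ligand synthesis, 8 rose and 2 fell in AML against whole marrow, with a median of 1.19, and after TMM 1 rose and 2 fell. The shares were 53.3% and 13.3%, beside 27.3% and 11.3% of all genes, and 6.67% and 13.3% after TMM, beside 4.73% and 16%. The 1 that rose on both scalings was Fut7, the fucosyltransferase that completes selectin ligands, which differed by 1.72 (SE 0.30, adjusted p = 9.9e-05) and by 1.03 after TMM. Cd24a, a surface ligand of P-selectin, fell by 1.82 and by 2.51 after TMM. Of 14 tested junction and immunoglobulin receptors, 4 rose and 2 fell against whole marrow (3 and 4 after TMM). On the deposited scaling these are 28.6% and 14.3% of the 14, about the 27.3% and 11.3% of all genes. After TMM they are 21.4% and 28.6%, above the 4.73% and 16% of all genes. Among them Nectin1 differed by 2.98, Nectin2 by 2.17 (3.39 with receptor background subtracted) and the erythroid receptor Icam4 by −4.48. Against lineage-negative marrow 6 rose and 2 fell (42.9% and 14.3%, beside 17.7% and 12.5% of all genes), and Cadm1 differed by 5.29, or 4.67 with a pseudocount of 5.

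Of 23 tested genes of integrin activation and linkage to actin, 14 rose and 0 fell in AML against lineage-negative marrow on both scalings (limma), with a median of 1.30, against 0.02 over all genes. The 14 are 60.9% of the 23, beside 17.7% of all genes called higher. At an unadjusted p under 0.05, 19 were higher and 0 lower. For this and the later counts at an unadjusted p, no share of all genes was taken. Actn1 (alpha-actinin) differed by 2.97, Vasp by 1.94 and Zyx (zyxin) by 1.76. Against whole marrow 8 rose and 1 fell, 34.8% and 4.35% beside 27.3% and 11.3% of all genes. After TMM 0 rose and 2 fell, 0% and 8.70% beside 4.73% and 16% of all genes. At an unadjusted p under 0.05, 5 were then higher and 5 lower. Of 17 integrin signalling kinases and adaptors, 10 rose and 0 fell against lineage-negative marrow on both scalings (limma), with a median of 1.17 and with 13 higher and 0 lower at an unadjusted p under 0.05. The 10 are 58.8% of the 17, beside 17.7% of all genes. The Src-family kinase Fgr differed by 6.39, or by 5.77 to 6.99 without lineage-negative replicate 2 or 1. Against whole marrow 7 rose and 0 fell, 41.2% and 0% beside 27.3% and 11.3% of all genes. At an unadjusted p under 0.05, 14 were higher and 1 lower. After TMM 0 rose and 2 fell, 0% and 11.8% beside 4.73% and 16% of all genes, with 8 higher and 2 lower at an unadjusted p under 0.05. The 15 tetraspanins outside the 31 were mixed, with 3 higher and 2 lower in AML than in whole marrow (2 and 3 after TMM). These are 20% and 13.3% of the 15, beside 27.3% and 11.3% of all genes. After TMM they are 13.3% and 20%, beside 4.73% and 16%. Against lineage-negative marrow 2 were higher and 4 lower, 13.3% and 26.7% beside 17.7% and 12.5% of all genes. Tspan8 fell against each reference (log2 differences of −6.43 and −5.47, or −5.49 and −4.55 with a pseudocount of 5).

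Of 19 tested matrix ligands of integrins and CD44, 3 rose and 5 fell in AML against whole marrow, with a median of 0.12 (1 and 6 after TMM). These are 15.8% and 26.3% of the 19, beside 27.3% and 11.3% of all genes. After TMM they are 5.26% and 31.6%, beside 4.73% and 16%. Against lineage-negative marrow 4 rose and 4 fell, 21.1% each, beside 17.7% and 12.5% of all genes. Fn1, which encodes fibronectin, the ligand of alpha4 and alpha5 integrins, averaged 47238 in AML, 8381 in whole marrow and 2042 in lineage-negative marrow. It rose by 2.42 (SE 0.46, adjusted p = 0.00018), or 1.73 after TMM, and by 4.98 (SE 0.46, adjusted p = 3.47e-08) against lineage-negative marrow. Thbs1, which encodes thrombospondin 1, averaged 1002 in AML, 2362 in whole marrow and 199 in lineage-negative marrow, and rose by 2.29 against lineage-negative marrow.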

How the data were processed

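Per the labels' protocols, total RNA was extracted with TRIzol and stranded libraries were made with the TruSeq Stranded Total RNA kit. The authors deposited a table whose values have the unit signal: estimated counts per gene divided by a DESeq2 size factor of each library, here called normalized counts. STAR, Partek, DESeq2 and the build mm10 are named in the submitters' processing notes. The gene starts in the table matched a GRCm38 annotation for 861 of 38066 identifiers, so no gene coordinates are printed from it. The strand used for counting is not given in the sources used here, so a gene and its antisense or overlapping neighbour may share reads. Between 77.6% and 84.3% of the low values per library were whole multiples of a step (tolerance 0.02 steps), so whole reads were not recovered and no count model was run. Depth was estimated as total over step. Floors cover counting error only.

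Groups came from the sample titles. Genes were kept at a normalized count of at least 10 in at least 4 samples, and log2 values with a pseudocount of 1 entered a single limma fit of the 3 group means (limma 3.58.1, R 4.3.3, mean-variance trend, two-sided, Benjamini-Hochberg over 18941 genes). Fold changes are therefore on the log2(value + 1) scale, which understates the change of low genes. The fit was tested on simulated data. Ratios within libraries were taken on the same scale and tested by exact permutation. Alternatives were TMM scaling, pseudocounts of 0.1 and 5, no filter, a mean of at least 50, subtraction of the receptor background, fits of a pair of groups, a replicate block and leaving out each library. All 31 genes were named, and from each other list at most the 3 called genes with the largest difference and a mean of at least 50, apart from Thbs1 against whole marrow, chosen after its values were seen. The members and lists were chosen with earlier results of these data known.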

Additional observations from a re-analysis of the deposited data

Results flagged for a closer look

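In each group of the 31 genes, the library at either end was set apart when its gap to the next exceeded the critical share of the group's range (Dixon's test at 95%). Of 93 groups 14 passed, where chance gives about 1 in 20. The values are on the deposited scaling. In whole marrow, replicate 1 was far below the others for Itga5 (70.01 against 218 to 243), Icam1 (129.3 against 306 to 342), Alcam (396.7 against 589 to 623) and Cd82 (951.4 against 1689 to 1782). That library was the lowest of its group for all 31 genes. Its TMM divisor was 0.468, against 0.792 to 0.816 in the other whole marrows. The part of this difference in scale in its 4 flags was not tested. In lineage-negative marrow, replicate 1 was far above the others for Itgal (3342 against 1614 to 1858), Itgam (1287 against 486 to 568.3) and Tln1 (28717 against 16445 to 17753). Selp was high in lineage-negative replicate 4 (153.9 against 45.8 to 58.8), and Mcam was low in lineage-negative replicate 2 (2.644 against 18.3 to 20.3).

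In AML, replicate 1 was far above the others for Cd44 (15448 against 7445 to 10680) and Vcl (6693 against 3806 to 4851), and replicate 3 for Itgb1 (8933 against 4135 to 5798) and Icam1 (1846 against 792 to 1238). Vcam1 was far above the others in AML replicate 6 (1816 against 261 to 844).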

How the results depend on the processing

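Counts of called genes among the 31 stayed within 1.5 times under every alternative run except 3: TMM scaling gave 4 instead of 14 higher in AML than in whole marrow and 1 instead of 6 higher in lineage-negative than in whole marrow, and leaving out a library gave 1 to 3 lower in AML than in whole marrow. Against lineage-negative marrow no member changed its call or sign with TMM. TMM turned the sign of AML against whole marrow for Itga6 (−0.46), Itgam (−0.36), Itgb2 (−0.0157), Selp (−0.38), Icam2 (−0.18), Vcl (−0.0342), Mcam (−0.51), Ncam1 (−0.67) and Cd82 (−0.67). It turned lineage-negative against whole marrow for Itga1 (−0.51), Itga4 (−0.0021), Itgal (−0.68), Itgb5 (−0.34), Itgb7 (−0.49), Selp (−0.10), Icam1 (−0.24), F11r (−0.38) and Tln1 (−0.22). None of these signs belonged to a called gene on either scaling, and the cause of the shift was not tested. Itga9 in AML against lineage-negative marrow, at 0.01, became −0.0014 with a pseudocount of 0.1 and −0.0183 with background subtracted.

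Leaving out a library moved some uncalled differences across 0. For AML against whole marrow the ranges were −0.0199 to 0.76 (Selp), −0.41 to 0.59 (Mcam), −0.14 to 0.11 (Ncam1), −0.23 to 0.076 (Cd9) and −0.19 to 0.11 (Cd82). For AML against lineage-negative marrow they were −0.22 to 0.31 (Itga9), −0.019 to 0.17 (Itgb1) and −0.60 to 0.17 (Selp), and for lineage-negative against whole marrow −0.33 to 0.17 (Itgal), −0.26 to 0.0633 (Itgav) and −0.31 to 0.0013 (Selplg). In the ratios, 44 of 360 such results lost and 2 gained an adjusted p under 0.05, and between the references leaving out a library leaves a smallest possible p of 0.0286. Same-numbered samples deviated together with correlations of −0.288 to 0.171, and differently numbered ones with −0.241 to 0.194. These values cannot decide whether the numbers pair the samples, and the main fit treated the samples as unpaired. With a replicate block Mcam turned to −0.0563 against whole marrow and Itga2 lost its call there at −0.98, while the other members kept theirs. That fit takes no information on the contrast from AML replicates 5 to 7. Low genes (Itga2, Itga9, Itgad, Selp, F11r and Mcam) are limited by depth and, in whole marrow, by background.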
